A study of Mus musculus with 16 samples.

Results

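Myod1, Myf5, Myf6 and Myog, the 4 myogenic regulatory factor genes, were examined in ChIP-seq peak lists for H3K27ac and for MyoD from cultured mouse muscle stem cells (satellite cells) under knockdown of LncMyoD, a long noncoding RNA, and under control conditions. For each antibody, touching or overlapping peaks from its 4 libraries were joined into 1 region. A region was taken if it overlapped the body of 1 of the 4 genes, or lay within 50 kb with that gene as its nearest protein-coding gene. This gave 24 of 60038 H3K27ac regions and 9 of 24420 MyoD regions.

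The cells came from the hindlimb of C57BL/6 mice and grew in F10 medium with horse serum, without a transgene or engineered allele named in the labels. Each antibody had 2 libraries labelled control and 2 labelled knockdown, and siRNA exposure lasted 48 h; every sample carries 1 treatment text, with LncMyoD as the siRNA target, so a library is called control from its title and genotype label alone. The other 8 of the 16 samples are inputs and were not analysed here. The libraries hold no RNA measurement, and the level of LncMyoD was therefore not checked. No label says that replicates are separate animals or cultures, so their spread may be technical.

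Myogenic regulatory factors are basic helix-loop-helix transcription factors that pair with E proteins and bind the E-box, CANNTG. Myod1 and Myf5 act early, in the commitment of cells to the muscle lineage and in activated satellite cells, Myog drives differentiation, and Myf6 (MRF4) acts in differentiation and in mature fibres. H3K27ac, acetylation of lysine 27 of histone H3, marks active promoters and enhancers, and MyoD, the product of Myod1, is known to bind regulatory DNA of Myod1 and Myog.

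Upstream sequences were taken from RefSeq (GRCm38.p6, the assembly that mm10 represents) for starts at which the peak lists bear on the DNA just upstream. The promoter table matched 2 of the 4 genes, Myog and Myf5. The listed Myf5 start lies inside its gene body, and that window, in which no CANNTG was found, is not shown. Shown are Myog and Gm45923, a noncoding RNA gene between Myod1 and its more distant MyoD regions that RefSeq also lists as DRReRNA and Munc. Each line gives the 250 bases before a start, 5′ to 3′ on the strand of the gene, with E-boxes (CANNTG) in capitals. The windows are chr1:134289754-134290003 for Myog and chr7:46371153-46371402 for Gm45923, both on the plus strand.
Myog: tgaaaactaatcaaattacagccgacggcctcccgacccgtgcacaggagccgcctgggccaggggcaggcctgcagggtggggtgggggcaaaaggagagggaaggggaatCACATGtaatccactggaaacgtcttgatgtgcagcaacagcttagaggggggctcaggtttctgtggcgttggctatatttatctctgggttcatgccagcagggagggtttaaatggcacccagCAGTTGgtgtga
Gm45923: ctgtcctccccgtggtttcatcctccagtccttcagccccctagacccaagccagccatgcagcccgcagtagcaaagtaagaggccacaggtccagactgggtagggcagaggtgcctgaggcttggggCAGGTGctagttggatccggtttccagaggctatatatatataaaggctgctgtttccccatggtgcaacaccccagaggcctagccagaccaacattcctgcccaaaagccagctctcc

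Counting back from the start, with -1 as the base before it, the Myog window held the E-boxes CACATG at -138 to -133 and CAGTTG at -12 to -7. Neither has the letters CAGCTG, nor CAGGTG as read on either strand, and with the search limited to those motifs the count at Myog went from 2 to 0. Between the E-boxes lay TCAGGTTTC at -84 to -76, the MEF3 motif, and CTATATTTA at -64 to -56, which has the letters CTANNNNTA of the MEF2 core. The Gm45923 window held 1 E-box, CAGGTG at -120 to -115, and CTATATATA at -90 to -82. Of the 32851 RefSeq windows of this length, 66.2% held CANNTG, 19.0% CTANNNNTA, 13.0% CAGCTG, 17.2% CAGGTG (read on the other strand as CACCTG) and 0.387% TCAGGTTTC; all motifs were searched on both strands, and both CAGCTG and CAGGTG are forms of CANNTG. An E-box is thus in most upstream windows, and the MEF3 letters are in few.

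The lists gave each peak a fold enrichment, the authors' linear ratio of signal over background at the peak's summit, and a −log10 q. A fold belongs to its own list, so folds are given for each library and ranked only within it. The percentile of a peak is its rank by fold as a percentage of its own list, with peaks of equal fold given their mean rank. In the order control 1, control 2, knockdown 1 and knockdown 2, the H3K27ac lists held 46259, 53048, 54082 and 39964 peaks, and the MyoD lists 17818, 17649, 16524 and 13146. Since the lists differ in length, a percentile places a peak in its own list and does not by itself show a change. Knockdown library 2 had the shortest list for both antibodies. The lists hold no read counts and the depth of each library is unknown. In such bulk data a signal in fewer cells and less signal per cell cannot be told apart.

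Of the 24 H3K27ac regions, 9 had a peak in all 4 libraries, beside 43.5% of all H3K27ac regions. None was control-only, meaning a peak in both control libraries and neither knockdown library, a class that held 1.46% of all regions; 0 of 24 allows a share of up to 12.5%. A single region, beside Myog, was knockdown-only, beside 0.768% of all regions. Among the 9 MyoD regions 6 had a peak in all 4 libraries, beside 40.8% of all MyoD regions. No MyoD region was control-only (4.53% of all; 0 of 9 allows up to 33.3%) or knockdown-only (0.725% of all). These limits cover counting error over regions only.

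The 9 H3K27ac regions of all 4 libraries were 2506 to 11063 bp wide, while the 14 with a peak in 1 to 3 libraries and not group-only were 165 to 611 bp wide with folds from 2.39 to 6.97. A peak was missing in knockdown library 2 alone at 4 of the 24 H3K27ac regions and at 1 of the 9 MyoD regions, beside 8.51% and 8.44% of all regions. With every list of an antibody cut to the length of the shortest, by −log10 q, it was missing there alone at 1 of 17 H3K27ac regions (5.72% of all) and 1 of 8 MyoD regions (4.27% of all).

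**Figure D1:**
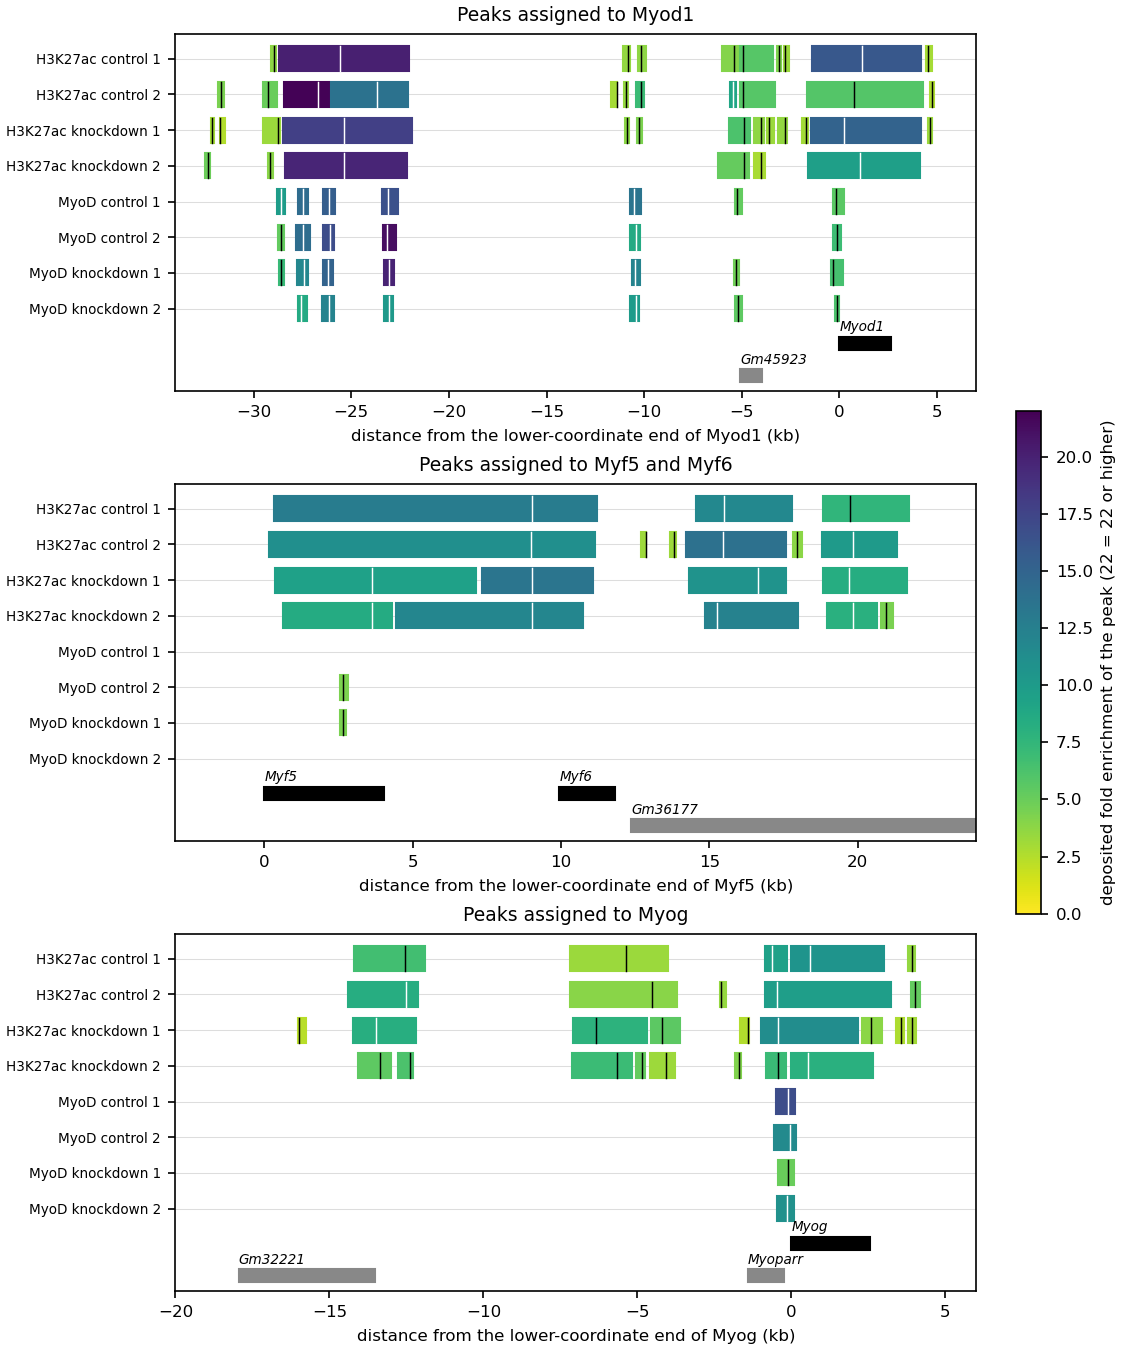
H3K27ac and MyoD peaks of each library (rows) around Myod1, around Myf5 and Myf6, and around Myog, by distance in kb from the lower-coordinate end of the gene. Bars are peaks and their colour is the fold enrichment within that list; the wide H3K27ac regions hold a peak in all 4 rows, and the MyoD peaks 22.6 to 28.4 kb below Myod1 sit inside 1 of them.

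Each of the MyoD regions at Myod1 overlapped H3K27ac, though not every summit lay under it. Myod1 (chr7:46376474-46379092, mm10) had 7 MyoD regions and 11 H3K27ac regions. Of the MyoD regions, 5 had a peak in all 4 libraries, a number reached by 234 (1.07%) of 21900 protein-coding genes. Among the H3K27ac regions, 3 were in all 4 libraries, 3 in 3, 2 in 2 and 3 in 1, and 5 of the 11 overlapped a MyoD region.

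A group of 4 MyoD regions lay 22.6 to 28.4 kb below the lower-coordinate end of Myod1, inside a single H3K27ac region, chr7:46346942-46354606. That H3K27ac region, 21.9 kb from the gene, was 7665 bp wide, wider than 98.7% of the H3K27ac regions of all 4 libraries, whose median width was 1676 bp. Its highest H3K27ac fold was 20.1 and 21.9 in control libraries 1 and 2 and 17.8 and 19.8 in knockdown libraries 1 and 2. These values ranked at percentiles 99.0, 98.7, 96.8 and 99.1 of their lists, so the control and knockdown ranges overlapped near the top of every list. Only 92 H3K27ac regions, 0.153% of all, overlapped as many as 4 MyoD regions. The merged region held 2 or 3 H3K27ac peaks per library, and some MyoD summits fell in gaps between them. At chr7:46347696-46348078 the summit was inside an H3K27ac peak in 2 of 6 same-group library pairs. It was so in 6 of 8 at chr7:46349977-46350617, and in 8 of 8 at chr7:46348659-46349386 and at chr7:46353040-46353844. Regulatory DNA known as the core enhancer and the distal regulatory region of Myod1 lies upstream of the gene. The peak lists mark neither, and no region was matched to them by coordinates. The RefSeq synonym DRReRNA of Gm45923, which lies nearer to Myod1 and is described below, refers to the distal regulatory region.

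In 3 of the 4 libraries, all but knockdown library 2, the strongest MyoD peak there was at chr7:46353040-46353844, 22.6 kb from the gene, with folds of 16.5 and 21.2 in the controls against 19.9 and 10.2 in the knockdown. Within their lists these ranked at percentiles 95.1, 98.1, 97.2 and 79.8. Knockdown library 2 stood lowest, while knockdown library 1 lay between the controls. At chr7:46349977-46350617, 25.9 kb away, the MyoD folds were 15.5 and 16.9 against 15.1 and 12.1, at percentiles 93.8 and 95.7 against 92.2 and 87.8. At chr7:46348659-46349386, 27.1 kb away, they were 14.3 and 14.2 against 11.8 and 8.62, at percentiles 92.2 and 92.1 against 84.6 and 69.7. In both of these regions each control ranked above each knockdown library, and the −log10 q at the latter, 40.1 and 36.4 against 24.9 and 13.9, had the same order. The weakest of the 4, chr7:46347696-46348078, had folds of 9.91 and 5.30 in the controls and 7.21 in knockdown library 1, with no peak in knockdown library 2.

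A MyoD peak 10.1 kb below Myod1, chr7:46365732-46366327, lay between H3K27ac peaks more than under them. Its MyoD folds were 13.5 and 8.61 in the controls against 12.2 and 10.01 in the knockdown, so the groups overlapped. H3K27ac regions at chr7:46365400-46365747 and chr7:46366050-46366548 flanked it in control libraries 1 and 2 and in knockdown library 1. Their H3K27ac folds were 3.53, 3.50 and 3.82 on the lower side and 3.72, 6.97 and 4.30 on the upper side. The gaps between the flanking peaks were 414, 387 and 426 bp. Neither flank was called in H3K27ac knockdown library 2, the shortest H3K27ac list. The MyoD peak was called in MyoD knockdown library 2, but no label ties these libraries to each other. Of the 8 pairs of a MyoD library with an H3K27ac library of the same group, a MyoD summit fell inside an H3K27ac peak in 1.

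Nearer the gene, chr7:46371079-46371491 covered the start of Gm45923 (chr7:46371403-46372492, plus strand), whose upstream sequence is printed above. MyoD was called there with folds of 5.29 in control library 1, and 4.79 and 5.49 in knockdown libraries 1 and 2, but not in control library 2. The 3 summits lay 202, 207 and 105 bp before the start, so that of knockdown library 2 was 10 bp from the CAGGTG E-box and the other two 82 and 87 bp from it. The merged H3K27ac region there, chr7:46370275-46373168 (2894 bp), spanned Gm45923 and had a peak in all 4 libraries. Its highest folds were 5.76 and 8.94 in the controls against 6.25 and 5.23 in the knockdown. The 8.94 belonged to a peak of control library 2 that ended before Gm45923 (chr7:46370845-46371154). The peak of that library over the gene had a fold of 5.83. In both knockdown libraries the H3K27ac peaks left a gap within the gene. How often such gaps separate the groups over all regions was not counted.

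At the gene itself the MyoD peaks ranked in the middle of their lists and H3K27ac was broad. The MyoD region chr7:46376050-46376699 overlapped the lower-coordinate end of Myod1, with folds of 5.62 and 6.95 in the controls against 6.53 and 6.27 in the knockdown. Those values ranked at percentiles 36.2, 56.7, 46.7 and 42.3, the knockdown libraries between the controls, and the summits lay 0.127 to 0.308 kb outside the gene end. H3K27ac over the gene (chr7:46374547-46380770, 6224 bp) had folds of 15.99 and 5.88 in the controls against 15.1 and 9.66 in the knockdown. The values of −log10 q were 73.3 and 24.9 against 68.9 and 24.4. Here the 2 replicates of a group differed more than the groups did, library 1 standing above library 2 in both.

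**Figure D2:**
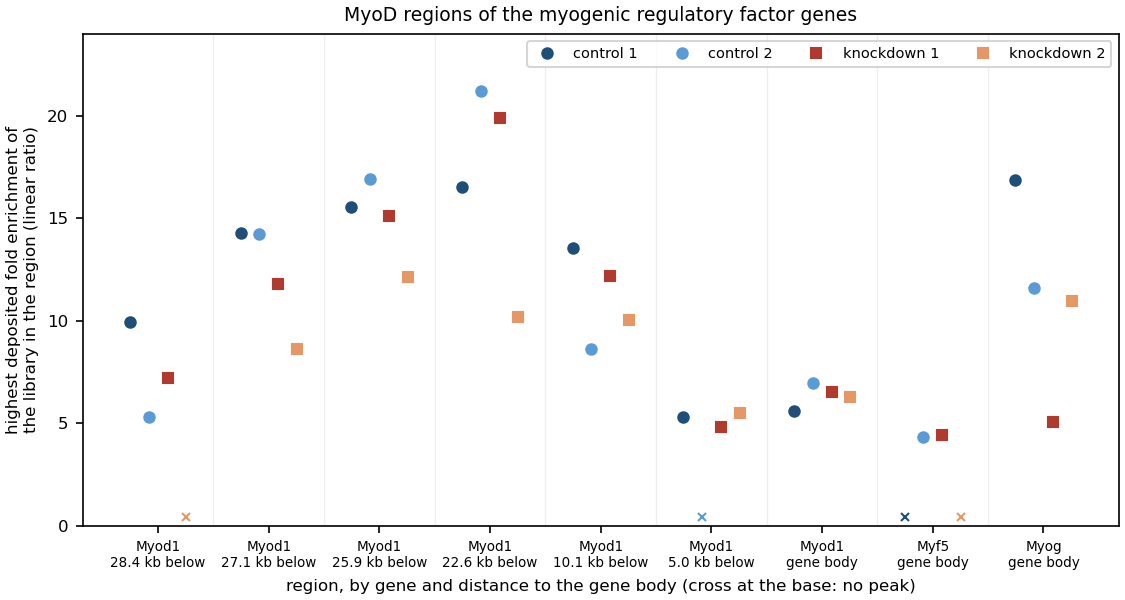
MyoD fold enrichment (linear, within each list) in the 9 MyoD regions of the 4 genes, 1 point for each library, control and knockdown coloured apart; a cross marks a library with no peak. At Myog control library 1 stands at 16.9 and knockdown library 1 at 5.05, while at the lower-coordinate end of Myod1 the 4 libraries lie between 5.62 and 6.95.

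Myf5 and Myf6 lie side by side on chromosome 10 and shared 1 broad H3K27ac region with almost no MyoD. Myf5 is at chr10:107482908-107486927 and Myf6 at chr10:107492848-107494723. The shared region, chr10:107483060-107494122, was 11063 bp wide, wider than 99.5% of the H3K27ac regions of all 4 libraries, and overlapped both gene bodies. It is counted once among the 24 regions.

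H3K27ac folds in the shared region were 12.8 and 11.2 in the controls against 13.5 and 11.9 in the knockdown, so the groups overlapped. The strongest summits of the 4 libraries fell within 42 bp of each other, between the genes, 0.906 to 0.948 kb below the lower-coordinate end of Myf6. Both knockdown libraries had the region split into 2 peaks. Their other summits, with folds of 9.46 and 8.54, lay inside the Myf5 gene body, 410 and 413 bp before the start of the listed transcript, which is itself 793 bp inside the higher-coordinate end of the gene. In both controls it was a single peak. The share of all regions that split by group in this way was not counted.

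Myf6 had a further pair of H3K27ac regions in all 4 libraries, both inside the noncoding RNA gene Gm36177 (chr10:107495268-107659403). At chr10:107497111-107501018, 2.39 kb from Myf6, folds were 11.7 and 13.9 in the controls against 10.7 and 12.4 in the knockdown. At chr10:107501692-107504634, 6.97 kb away, they were 7.62 and 10.06 against 8.38 and 8.03. The groups overlapped at both, and 2 weak regions of Myf6 were called in control library 2 alone.

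MyoD had 1 region at Myf5 and none at Myf6; 40.3% of protein-coding genes had a MyoD region. The Myf5 region, chr10:107485451-107485709, lay inside the gene and was called in control library 2 with a fold of 4.31 and in knockdown library 1 with 4.42. Both summits stood at base 107485561, 573 bp after that transcript start, and ranked at percentiles 10.6 and 10.1 of their lists. Each group thus had 1 library with this weak peak and 1 without.

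**Figure D3:**
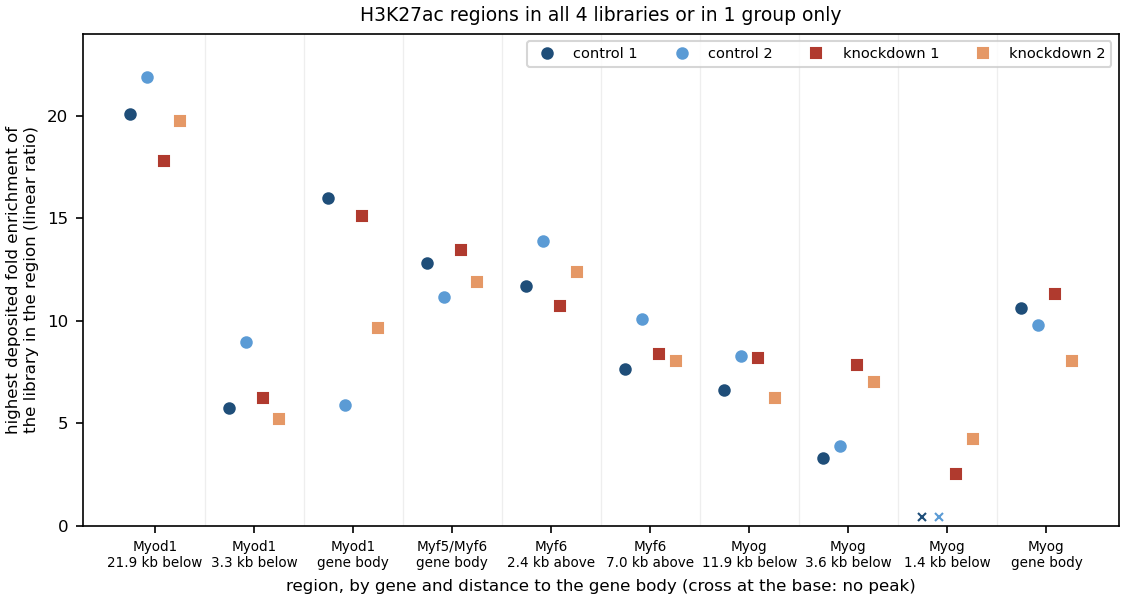
H3K27ac fold enrichment (linear, within each list) in the member regions with a peak in all 4 libraries and in the knockdown-only region, 1 point for each library, control and knockdown coloured apart; a cross marks a library with no peak. The region 3.60 kb below Myog has controls at 3.28 and 3.88 and knockdown libraries at 7.82 and 7.01. Over Myod1 control library 2 has the lowest fold, 5.88, though its −log10 q is high for that fold.

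At Myog (chr1:134290004-134292548, plus strand) 1 MyoD region lay just before the start, and of the 6 MyoD regions in all 4 libraries its fold had the widest ratio between libraries. This region, chr1:134289425-134290141, had MyoD folds of 16.9 and 11.6 in control libraries 1 and 2 and 5.05 and 10.97 in knockdown libraries 1 and 2. They ranked at percentiles 95.4 and 85.8 against 20.1 and 83.5, each control above each knockdown library. The group means of the percentile differed by -38.8 (knockdown minus control), and by -7.09 without knockdown library 1, so most of the difference came from that library.

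In knockdown library 1 the fold and the q at Myog ranked differently. The −log10 q values were 47.1 and 26.4 in the controls against 11.8 and 20.9 in the knockdown, at percentiles 95.3, 85.5, 57.7 and 83.0. Among the 1474 MyoD peaks of knockdown library 1 with a fold within 5% of the Myog peak's, the median −log10 q was 5.39, and that of Myog was 2.19 times as high. The order of the groups was the same by q, but knockdown library 1 stood nearer the middle of its list.

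The 4 MyoD summits lay 117 and 59 bp (controls) and 97 and 135 bp (knockdown) before the Myog start, a spread of 76 bp, in the window printed above. The summit of knockdown library 2 fell on the CACATG E-box; those of control library 1 and knockdown library 1 were 16 and 36 bp from it, and that of control library 2 was 47 bp from CAGTTG. The start of the divergent noncoding RNA Myoparr (chr1:134288595-134289761, minus strand) is 243 bases from that of Myog, and all 4 summits lay between the starts. The site is thus upstream of both genes.

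H3K27ac over Myog (chr1:134289015-134293243, 4229 bp) had folds of 10.6 and 9.79 in the controls against 11.3 and 8.03 in the knockdown, so the groups overlapped. In control library 1 and knockdown library 2 the H3K27ac peaks left gaps of 121 and 158 bp that held the MyoD summits. In control library 2 and knockdown library 1 a single peak ran over them. Each group thus had 1 library of each kind.

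**Figure D4:**
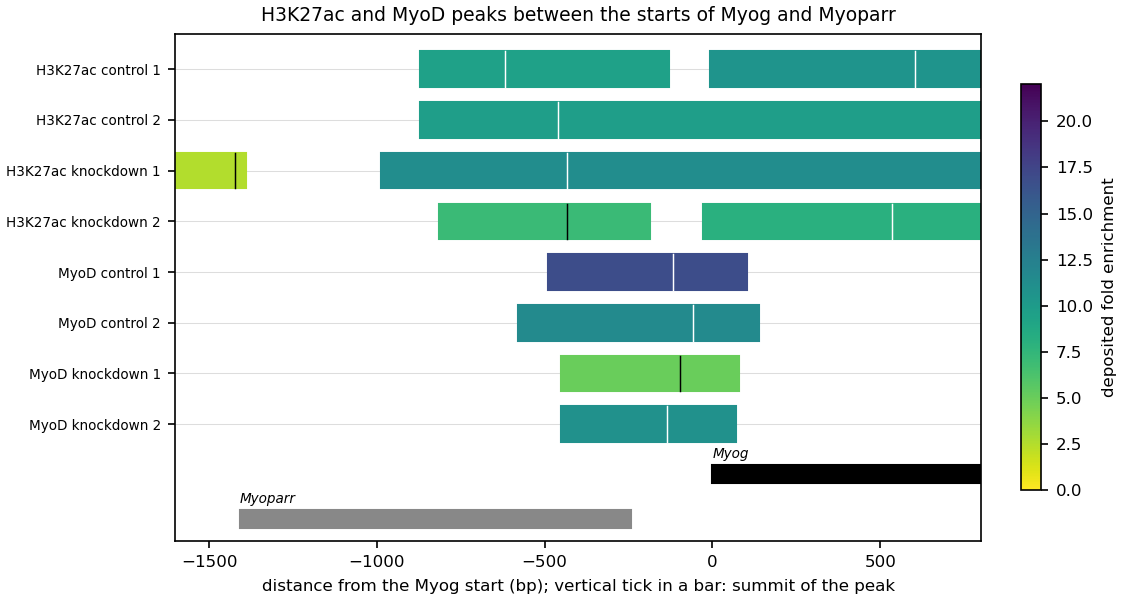
H3K27ac and MyoD peaks of each library around the Myog start (x axis, distance from the start in bp), with Myog and the divergent noncoding RNA Myoparr drawn below; ticks on the bars are summits. The MyoD summits lie 59 to 135 bp before the start, and the H3K27ac bars of control library 1 and knockdown library 2 are open over them.

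Upstream of Myog, 1 H3K27ac region ranked higher in both knockdown libraries. At chr1:134282826-134286400, 3.60 kb below the start, folds were 3.28 and 3.88 in the controls against 7.82 and 7.01 in the knockdown, at percentiles 18.3 and 30.3 against 73.1 and 65.0. The −log10 q values were 5.99 and 6.43 against 24.2 and 10.2, at percentiles 37.7 and 48.4 against 72.6 and 63.9. The difference of the mean percentile was 44.7 by fold and 25.2 by q. Peaks covered 3166 and 3449 bp of the region in the controls and 3320 and 3032 bp in the knockdown, so the length under H3K27ac overlapped between groups. It was 1 peak in each control, 2 in knockdown library 1 and 3 in knockdown library 2. The remaining knockdown peaks had folds of 5.53 in library 1 and 5.23 and 3.25 in library 2, the last below both controls. Summits of the highest peaks spread over 1805 bp, so the folds were taken at different positions. Against the median of peaks with a fold within 5%, −log10 q was 1.47 and 1.65 times as high in the controls. In both knockdown libraries that ratio was 1. How often peaks split by group over all regions was not counted.

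The knockdown-only region, chr1:134288166-134288614, overlapped the far end of Myoparr, 1.39 kb below Myog. Its H3K27ac folds were 2.51 and 4.21, with −log10 q of 1.92 and 3.81, so both were weak calls. The peaks of the 2 libraries shared few bases (134288341 to 134288614 and 134288166 to 134288354). With peaks up to 1000 bp apart merged, the region joined its neighbours and no knockdown-only region was left at the 4 genes. Under 3 other settings it was also lost and 1 control-only region appeared, a different one each time. It was chr7:46346975-46347693 with a −log10 q of at least 5, chr1:134293785-134294192 with lists of equal length, and chr7:46380907-46381308 when 50% of a region had to be covered. Another H3K27ac region of all 4 libraries, chr1:134275592-134278097, lay 11.9 kb below Myog over the noncoding gene Gm32221, with folds of 6.63 and 8.29 against 8.19 and 6.25, which overlapped. The other 4 Myog regions, 1 of them in 3 libraries and 3 in 1, had H3K27ac folds within the range given for narrow regions.

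Over the regions of all 4 libraries, each control ranked above each knockdown library by fold percentile at 3 of 6 MyoD regions, where 25.8% of all such MyoD regions did so. The reverse order was seen at 0 of 6 (8.4% of all). Ranked by q instead, the counts were 3 of 6 (26.5% of all) and 0 of 6 (7.73% of all). The 3 were, by either measure, the regions 25.9 and 27.1 kb below Myod1 and the one at the Myog start. Within a list −log10 q largely follows fold, so the 2 rankings are not independent. For H3K27ac 0 of 9 regions had controls above knockdown (13.1% of all) and 1 of 9, the region upstream of Myog, the reverse (9.38% of all). By q, 2 of 9 had controls above knockdown (12.8% of all), the regions over Myog and over Myf5 with Myf6, and 1 of 9 the reverse (9% of all). At those 2 the lowest control and the highest knockdown library nearly tied. Their q percentiles were 85.09 and 85.08 over Myog, and 90.9 and 90.4 over Myf5 with Myf6. With so few regions, which share libraries and in part a locus, these counts describe these lists.

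All 9 MyoD regions overlapped an H3K27ac region, beside 69.5% of all MyoD regions and 88.5% of those in all 4 libraries. Conversely, 7 of the 24 H3K27ac regions overlapped a MyoD region, beside 26.4% of all. Library by library, the MyoD peaks of either control overlapped H3K27ac peaks of either control in 8 of 8 cases, counting 1 shared base. In the knockdown, 9 of 9 MyoD peaks of library 1 overlapped H3K27ac of library 1 and 7 of 9 that of library 2, while 7 of 7 and 6 of 7 MyoD peaks of library 2 did. The pairs below full overlap were those with H3K27ac of knockdown library 2, the shortest H3K27ac list. Over all MyoD peaks the share in the same pairs was 62.1 to 76.8%. The MyoD summit itself lay inside an H3K27ac peak in 6, 4, 6 and 6 of 8 cases in the control pairs, where 55.1 to 58.8% of all MyoD summits did. In the knockdown it did so in 7 and 6 of 9 cases for library 1 and 6 and 5 of 7 for library 2, beside 44.6 to 65.9% of all.

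Summed over the 4 genes, none of 4 per-library measures passed a test between the groups. H3K27ac peaks lay in 14 and 18 regions in the controls against 19 and 11 in the knockdown (16 ± 2.83 against 15 ± 5.66, SD, n = 2; exact two-sided permutation p = 1). They covered 42911 and 44402 bp against 43838 and 38019 bp (difference -2728 bp; exact p = 0.667). MyoD peaks lay in 8 and 8 regions against 9 and 7 (8 ± 0 against 8 ± 1.41, SD, n = 2; exact p = 1). They covered 4420 and 4158 bp against 3852 and 3021 bp (4289 ± 185 against 3436.5 ± 588 bp, SD, n = 2; difference -852.5 bp; exact p = 0.333). The last groups did not overlap, but 0.333 is the smallest p that 2 libraries against 2 can give, and the Benjamini-Hochberg adjusted value over the 4 tests was 1. The whole MyoD lists, which covered 6.81 and 6.90 Mb in the controls and 6.16 and 4.70 Mb in the knockdown, had the same order.

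Ranked by the percentile of its highest peak, Myod1 came first for H3K27ac, at 98.4 ± 1.11 (SD over 4 libraries). Myf6 followed at 91.0 ± 0.708, Myf5 at 89.3 ± 2.19 and Myog at 81.3 ± 6.08. Myf6 and Myf5, which share a region, overlapped in range (90.4 to 92.0 and 86.2 to 91.1), while Myod1 (96.8 to 99.1) and Myog (72.5 to 85.4) overlapped with neither. For MyoD the order was Myod1 at 94.6 ± 4.66, Myog at 71.2 ± 34.5, Myf5 at 5.18 ± 5.99, with libraries lacking a peak set to 0, and Myf6 at 0. Myod1 (87.8 to 98.1) and Myog (20.1 to 95.4) overlapped in range. A gene with more regions has more chances of a high peak, and Myod1 has the most.

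The genes most like each factor were those with the smallest mean absolute difference of this percentile over the 8 libraries, among genes with regions of both antibodies. For Myod1 they were Mbd2 (1.07 points), Prune2 (1.07) and Eef1g (1.11), and for Myf5 Klhdc8b (2.28), Entpd1 (2.29) and Nfu1 (2.67). Myf6 has no MyoD region, and other genes without one were not among those compared. Of the genes compared it was nearest to Mkks (1.24), Tmco1 (1.39) and Zfp703 (1.39), whose MyoD peaks ranked at percentile 8.18 or lower. For Myog they were Sgca (7.46), the α-sarcoglycan gene of the muscle membrane, Crtc3 (7.97) and Gmpr2 (8.42). Among the genes compared, Myog thus had none as near to it as the others had.

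All 4 genes had an H3K27ac region of all 4 libraries within 1 kb of a gene end, as did 43.7% of protein-coding genes, and Myod1 and Myog also had such a MyoD region (6.49% of genes). The wider pathway was followed in 48 listed genes, of which 38 had such an H3K27ac region and 20 such a MyoD region. Of their 151 MyoD regions 59.6% were in all 4 libraries, beside 40.8% of all MyoD regions, 7 (4.64%) were control-only and 0 knockdown-only. Those 7 were at Tcf4, an E protein partner, at the repressor Zeb1 and the Notch effector Heyl, at the acetyltransferase Ep300, at Fst, which encodes the myostatin antagonist follistatin, and, in 2 cases, at Rbm24, an RNA-binding splicing regulator. The control-only share of the pathway was thus close to that of all MyoD regions.

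Of the 421 H3K27ac regions of the pathway genes 40.6% were in all 4 libraries, 11 (2.61%) control-only and 1 (0.238%) knockdown-only, beside 43.5%, 1.46% and 0.768% of all H3K27ac regions. Control-only H3K27ac lay at Pax7 (3 regions), which encodes the satellite cell transcription factor, at the forkhead factor gene Foxo3 (2), at Fst (2), and at Id3, Snai1, Pitx3 and the fusion gene Mymk (1 each). The knockdown-only region was at Tcf12, the E protein HEB. Among genes listed as direct targets of the factors, 12 of 16 had a region of all 4 libraries near an end for each antibody. The share of all protein-coding genes was 43.7% for H3K27ac and 6.49% for MyoD. Of the MyoD regions of these targets, 31 of 42 were in all 4 libraries, beside 40.8% of all MyoD regions. Since the genes were picked as known targets, these counts describe the list. Neither antibody had a region at Twist1, a repressor of MyoD, at the cell cycle inhibitor gene Cdkn1c, or at Ckm, muscle creatine kinase; Mdfi, an inhibitor of the MyoD family, had 2 H3K27ac regions and 1 MyoD region but none within 1 kb of an end.

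H3K27ac in all 4 libraries lay within 1 kb of an end of 6 of 6 satellite cell markers (Pax7, Cdh15, Itga7, Vcam1, Sdc4 and Des). Of 14 markers of other cell types 7 also had it, beside 43.7% of protein-coding genes. They were Dpt, Ly6a and Cebpa of fibro-adipogenic cells, Tek of endothelium, Cd68 of immune cells, and Acta2 and Tagln of smooth muscle. Pdgfra, Pecam1, Cdh5, Ptprc, Adgre1 and Myh11, from the same lists, had none near an end. Farther from their ends, Pecam1 and Cdh5 had 3 and 2 H3K27ac regions of all 4 libraries, while Pdgfra, Ptprc, Adgre1 and Myh11 had no H3K27ac region. The part of other cells in the results was not tested.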

How the data were processed

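ChIP-seq peak lists of 8 libraries (2 antibodies, 2 control and 2 knockdown libraries each) were used, 1 list for each library and not pooled. The submitters' processing notes name mm10, MACS2 2.1.1, Bowtie2 2.3.2, SAMtools 1.3, bedtools 2.26.0 and Picard 2.9.2. Options, and the input used for each library, were not given in the sources used here. The authors' deposited lists give for each peak a fold enrichment (a linear ratio at the summit), −log10 of its p-value and q-value, and a whole-number score. The lowest deposited −log10 q of a list was 1.30 to 1.33, so weaker signal counts as no peak.

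Peaks were merged with a gap of 0 bp, and 1 shared base counted as presence. Regions went to the protein-coding gene body they overlapped or to the nearest within 50 kb (21900 genes, RefSeq table of GRCm38.p6); LncMyoD was not found under that name in it. The start and strand of Myod1 and Myf6 were not in the sequence tables used here, so distances are to gene ends. Scripts ran in Python 3.11.15 (numpy 2.4.6, pandas 2.3.3) and were tested on simulated peaks. Every region of the 4 genes was accounted for. Regions in all 4 libraries, in 1 group only, or at a gene are given library by library. Folds were not tested between lists. Per-library sums were compared by the exact two-sided permutation test over 6 assignments. The 4 genes, the pathway and marker lists and the tests were chosen with earlier results of these data known. Some listed marker genes are not reported here. The labels and lists name no batch. Alternatives were the merge gap, a −log10 q of at least 5, lists of equal length, the window, the overlap, q in place of fold, a replicate block and each library left out.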

Additional observations from a re-analysis of the deposited data

How the results depend on the processing

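With peaks up to 1000 bp apart merged, the control and knockdown means of regions with a peak differed by 0 for H3K27ac and 0.5 for MyoD (knockdown minus control), and 0 regions were in 1 group only for H3K27ac. The MyoD difference was -0.5 with a −log10 q of at least 5, with every region within 50 kb counted, and when 50% of a region had to be covered, an alternative chosen after seeing the data. With lists of equal length the H3K27ac regions differed by -1.5 and covered MyoD length by -765.5 bp, and 9 of 17 H3K27ac and 6 of 8 MyoD regions were in all 4 libraries. With a window of 20 kb the MyoD difference was 0.5, 3 of 5 MyoD regions were in all 4 libraries, and 5 of 5 overlapped H3K27ac. With every region within 50 kb, whatever its nearest gene, 16 of 38 H3K27ac and 14 of 18 MyoD regions were in all 4 libraries, and 18 of 18 MyoD regions overlapped H3K27ac.

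Leaving out 1 library at a time, the H3K27ac difference in regions ranged from -5.5 to 2.5, being 1 without control 2 and 2.5 without knockdown 2. The covered H3K27ac length ranged from -5637.5 to 181.5 bp, the positive value without knockdown 2. MyoD ranged from -1 to 1 regions and from -1268 to -437 bp. Regions in 1 group only numbered 1 to 6 for H3K27ac and 0 to 1 for MyoD, and those with a peak in every library 9 to 13 and 6 to 7. With the replicate number as a block, the exact p was 1 for 3 sums and 0.5 for covered MyoD length, the smallest the block allows; the labels do not say that a number marks a shared animal or culture. The ranking by q was also chosen after seeing the data. Asking for the summit or 50% of the region to be covered could not change a count, since every summit lies in its own region. The Myog MyoD percentile difference ranged from -70.5 to -7.09 and that of the H3K27ac region upstream of Myog from 38.8 to 50.7 with 1 library left out.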

Other observations

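Further MyoD regions lay within 50 kb of the 4 genes but were nearer to another protein-coding gene and so stand outside the counts above: 9 regions, of which 8 had a peak in all 4 libraries and 9 overlapped H3K27ac. Of these, 7 were nearest to Ppfia4, the gene on the higher-coordinate side of Myog, at 4.73 to 46.6 kb from Myog. One, at chr1:134244857-134245892, 44.1 kb below Myog and nearest to Adora1, had MyoD folds of 24.4 and 28.2 in the controls against 24.3 and 19.3 in the knockdown, at percentiles 99.1, 99.6, 98.8 and 97.5. These folds were above those at the Myog start in every library.

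Beyond the MyoD regions counted at Myod1, 34.5 kb below Myod1 and nearest to Otog, a MyoD region at chr7:46341344-46341926 had folds of 13.9 and 12.9 in the controls against 13.6 and 12.9 in the knockdown. It lay in an H3K27ac region of 8018 bp (chr7:46335667-46343684) with folds of 20.3 and 22.5 against 19.1 and 16.3. The MyoD values overlapped between groups. Within their lists the H3K27ac folds ranked at percentiles 99.1 and 99.0 in the controls against 97.9 and 96.8 in the knockdown. Each control thus ranked above each knockdown library, as at 13.1% of all H3K27ac regions of all 4 libraries. Whether any of these regions acts on Myod1 or Myog was not tested.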
